A study of Solanum lycopersicum with 8 samples.

Results

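Chromosome 1 is the longest chromosome of tomato. It was described here by the 8572 accessible chromatin regions (ACRs) of the leaf peak list whose sequence name is chromosome 1 of the SL4.0 assembly, of 69690 listed, and by the 1241 chromatin loops of the inflorescence loop list that carry the chromosome's name, of 9573 listed. The rule for choosing them uses the chromosome name alone and no measured value, although the chromosome was picked with earlier results of these data known. An ACR is a stretch of DNA into which the transposase of an ATAC-seq assay inserts adapters more often than into the background. A loop is a pair of distant 5 kb bins that Hi-C, which ligates DNA ends lying close together in the nucleus, joined more often than their distance predicts. The leaf list combines 6 replicates of terminal leaflets of young leaves, with the genotype label M82, a cultivated tomato. The growth text of the labels names an anantha mutant for these plants as well, and the genotype label was followed. The loop list combines 2 replicates of inflorescences of the anantha-e1546 mutant in the M82 background, from 2 plants harvested 10 weeks after sowing. The mutant makes cauliflower-like inflorescences rich in meristems, so the loops are those of a mutant tissue and not of leaves. Neither list carries values per replicate, read counts or the strength of a loop. Errors are therefore counting intervals or the spread over chromosomes, and the depth behind an ACR or a loop is unknown.

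In tomato, genes and their regulatory DNA are concentrated in the distal euchromatin of the chromosome arms, whereas a long stretch of repeat-rich pericentromeric heterochromatin fills the middle. Open chromatin in plants lies mostly at promoters and at nearby regulatory sites. Loops seen by Hi-C can join a gene to a distant regulatory site, or active genes to each other. The leaf list is in SL4.0 coordinates, while the loop list names no assembly and runs further along the chromosome, so each list is given in its own coordinates and the lists were not overlaid. The files pair no position with a gene, so no gene is named.

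Chromosome 1 held 12.4% of the ACRs placed on the 12 chromosomes and made up 11.8% of their summed extents, the extent being the position of the last ACR of a chromosome. Its first ACR began at position 19088 and its last ended at 90797139, an extent of 90.8 Mb against 68.5 Mb for chromosome 9, the next longest in that list. The ACRs covered 7.81 Mb, or 8.61% of the extent. The density was 94.4 ACRs per Mb, against a mean of 90.5 ± 24.3 (SD, n = 11 chromosomes) elsewhere, and 8 of the other 11 chromosomes were sparser. Of the loops, chromosome 1 held 12.96% on 11.6% of the extent. The loop density was 13.4 loops per Mb over an extent of 92.7 Mb, against 11.98 ± 3.93 (SD, n = 11 chromosomes). Neither density stood outside the range of the other chromosomes.

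Chromosome 1 was set against the other 11 chromosomes with an exact two-sided permutation test over which of the 12 chromosomes carries the label. With 1 against 11 no p below 0.0833 is possible, so the test cannot pass 0.05. The chromosomes share 1 list and are no replicates, so p describes how far chromosome 1 lies from the rest. In all, 22 measures were compared in this way, the lowest p was 0.1667, and every p adjusted by the Benjamini-Hochberg method was 1. For ACR density p was 0.9167 and for loop density it was 0.75. No measure was therefore shown to be particular to chromosome 1, and ranks below are descriptions.

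Leaf ACRs divided chromosome 1 into a short dense arm at its start, a long sparse block and a long dense arm at its end. The block was set as the longest run of 1 Mb windows whose running median over 5 windows stayed below 43.7 ACRs, which is 0.5 times the mean window of the 12 chromosomes. It ran from 7 to 63 Mb. Its position rests on the ACR counts themselves, so the counts that follow are a description with no test. The window just outside its start, at 6 to 7 Mb, held 60 ACRs, and the first window inside held 19. At the other side the last window inside, at 62 to 63 Mb, held 53 ACRs, and the first window outside held 14. The edge toward the end arm was thus uneven, with fewer ACRs just outside the block than just inside it. Of the 90 full windows of chromosome 1, 56 (62.2%) lay below the limit of 43.7 ACRs, against 60.1% of the windows of all 12 chromosomes, so the chromosome was about as sparse as the rest by that count.

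The start arm held 1168 ACRs in 7 Mb, or 167 ACRs per Mb. Its windows fell from 313 ACRs in the first Mb to 259 and 230 in the following ones. The remaining windows of this arm held 111, 83, 112 and 60. The fall was steep, and the arm had no plateau.

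**Figure D1:**
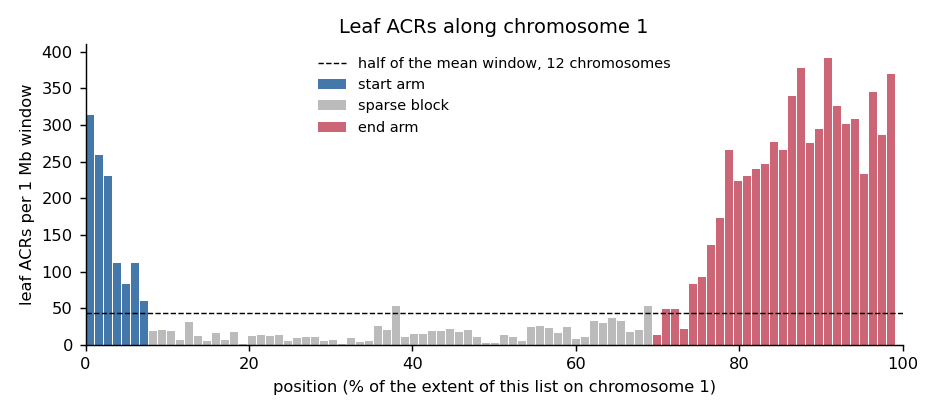
Leaf ACRs per full 1 Mb window of chromosome 1 (bars; y axis, number of ACRs) against position as a percent of the extent of the ACR list (x axis). Colours mark the start arm, the sparse block and the end arm, and the dashed line is the limit of 43.7 ACRs; the block holds 1 to 53 ACRs per window, and the end arm reaches 391.

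The end arm held 6499 ACRs in 27.8 Mb, 75.8% of those on the chromosome, at 234 ACRs per Mb. It opened with 14, 49, 49 and 22 ACRs in its first windows, from 63 to 67 Mb, and climbed through 83, 93, 136 and 173 to 266 ACRs at 71 to 72 Mb. All 19 windows with more than 200 ACRs in this arm lay from there on. The fullest was at 82 to 83 Mb, with 391 ACRs, followed by 378 at 79 to 80 Mb, 369 at 89 to 90 Mb, 345 at 87 to 88 Mb and 340 at 78 to 79 Mb. Unlike the start arm, the end arm held a plateau of high counts up to the end of the chromosome.

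The sparse block held 905 ACRs in 56 Mb, or 16.2 ACRs per Mb. ACRs covered 1.25% of it, compared with 14.4% of the start arm and 22.0% of the end arm. No full window of chromosome 1 was without an ACR. The emptiest held 1 ACR each, at 17 to 18 and 28 to 29 Mb, followed by 2 at 45 to 46 Mb, 3 at 44 to 45 Mb and 4 at 30 to 31 Mb. The block was not uniform. A window of 53 ACRs stood at 34 to 35 Mb, far from either arm, and windows at 56 to 60 Mb held 30 to 37.

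The longest stretch without an ACR lay inside the block, from 12756974 to 13986640, 1.23 Mb. The next ran from 16840822 to 17929439, 1.09 Mb, and from 28019876 to 29075311, 1.06 Mb. Stretches of 0.855 Mb followed at 44904906 to 45760232 and at 10339924 to 11194722. In all, 185 gaps were longer than 100 kb and together made up 49.9 Mb; 162 of them lay wholly in the block. How much of this is assembly gap or repeat to which reads could not be assigned was not tested. The longest gap on chromosome 1 was close to the mean of the other chromosomes, 1.23 Mb (SD 0.382, n = 11; exact permutation p = 1).

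Among ACRs, those of the block were slightly narrower and had a weaker q, and they stood alone more often. The median width was 634 bp in the block (95% interval 608 to 657), 660 bp in the start arm (631 to 695) and 673 bp in the end arm (662 to 687). These intervals, and those on shares below, cover counting error only and treat ACRs as independent, which neighbouring ACRs are not. The median −log10 q, the authors' own value per peak, was 2.33 in the block (95% interval 2.21 to 2.48), 2.65 in the start arm (2.55 to 2.79) and 2.58 in the end arm (2.53 to 2.62). The block and the arms differed by −38 bp and by −0.26 in −log10 q. Elsewhere the mean differences were −25.7 ± 45.6 bp and −0.30 ± 0.20 (SD, n = 11 chromosomes), so chromosome 1 lay within the spread (exact permutation p = 0.8333 and 1).

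Weak ACRs were more frequent in the block. ACRs with q above 0.05 numbered 257 on chromosome 1 (2.998%, 95% Wilson interval 2.66 to 3.38%), beside 3.03% of all chromosomal ACRs. They made up 5.41% of the block (49 ACRs, 95% Wilson interval 4.12 to 7.09%), 2.74% of the start arm (32 ACRs) and 2.71% of the end arm (176 ACRs, 2.34 to 3.13%). The share of ACRs at the score ceiling of 1000 differed less, at 41.9% in the block (95% Wilson interval 38.7 to 45.1%), 43.9% in the start arm and 44.0% in the end arm. On chromosome 1, nearly as large a share of the block as of the arms thus stood at the ceiling, which 43.8% of its ACRs shared. Elsewhere this gap varied, from 25.5% in the block against 44.3% in both arms on chromosome 6 to 45.4% against 43.4% on chromosome 5. ACRs with q above 0.05 were more frequent in the block on every other chromosome too, from 3.37% of it on chromosome 5 to 12.4% on chromosome 6. The first ACR of the chromosome 1 block by score and then q spanned 56905655 to 56914082, with a −log10 q of 13.1, and the next spanned 20548227 to 20549449, with 12.3.

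Spacing differed most. The median distance from an ACR to the next was 4744 bp in the block (quartiles 545 and 50470 bp), 933 bp in the start arm and 764 bp in the end arm. The next ACR lay less than 1 kb away for 31.5% of ACRs of the block (95% Wilson interval 28.5 to 34.6%), for 51.9% in the start arm (49.0 to 54.7%) and for 55.7% in the end arm (54.5 to 56.9%). These shares move with density, since ACRs that are crowded also lie closer. Of the ACRs of the block, 48.1% had no neighbour within 1 kb on either side, compared with 28.3% in the start arm and 22.7% in the end arm. The longest chains of ACRs each less than 1 kb from the next lay in the end arm. The first held 17 ACRs in 20.1 kb, from 89546980 to 89567084, and the second 16 ACRs in 23.3 kb, from 82483789 to 82507062. In the block the longest chain held 9 ACRs. Over the chromosome the share with a close neighbour was 52.6% (51.6 to 53.7%), compared with 51.9 ± 2.40% elsewhere (SD, n = 11 chromosomes; exact permutation p = 0.75).

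Of the first 10 ACRs of chromosome 1, ranked by score and then by −log10 q, 9 lay in the end arm and 1 in the start arm. This was near the split of all its ACRs, of which 75.8% lay in the end arm, 13.6% in the start arm and 10.6% in the block. The first by rank spanned 88901827 to 88912033, with a −log10 q of 14.9. The second spanned 86528016 to 86537912, with 14.8, and the third 77747251 to 77753666, with 14.2. The one in the start arm spanned 316423 to 323001, with 13.8. Among the narrower of the 10 were those at 67890563 to 67891637 (1075 bp; −log10 q 13.8) and at 70930124 to 70931261 (1138 bp; 13.8). The widest ACR of the chromosome spanned 88479923 to 88494609, 14687 bp. The others of the 5 widest lay at 86507988 to 86522327, at 73871161 to 73883735, at 88117423 to 88128455 and, in the start arm, at 228540 to 239484. In all, 7 of the 8572 ACRs of the chromosome were wider than 10 kb. No count at that width is given for the other chromosomes. Of the 5 widest, the ACR of 14340 bp at 86507988 had the lowest −log10 q, at 4.89, which was still above the upper quartile of the end arm, 4.40.

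Set beside the other chromosomes, the ACR block of chromosome 1 was the longest, at 56 Mb against 16 to 50 Mb by the same rule. As a share of the extent it was not, at 61.7% against a mean of 58.6 ± 12.7% (SD, n = 11 chromosomes), with 6 chromosomes above it. The arms of chromosome 1 together held 220 ACRs per Mb, which was exceeded on chromosome 2 at 235, and its block had the lowest density of the 12, at 16.2 against 16.9 to 24.8 ACRs per Mb. Since the ACR counts set these parts, none of these values was tested. With parts fixed by position alone, the first and last 20% of the extent were 5.72 times as dense as the interior (95% interval 5.43 to 6.03, from the Wilson interval of the share). The mean elsewhere was 6.67 ± 2.57 (SD, n = 11 chromosomes; exact permutation p = 0.8333). This order depended on the width of the ends: with ends of 10% the ratio was 3.71 against a mean of 6.16 elsewhere, and with ends of 30% it was 7.83 against 6.21. The last 20% held 5470 ACRs and the first 20% held 1322, a ratio of 4.14 that was second to that of chromosome 2, at 25.5.

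**Figure D2:**
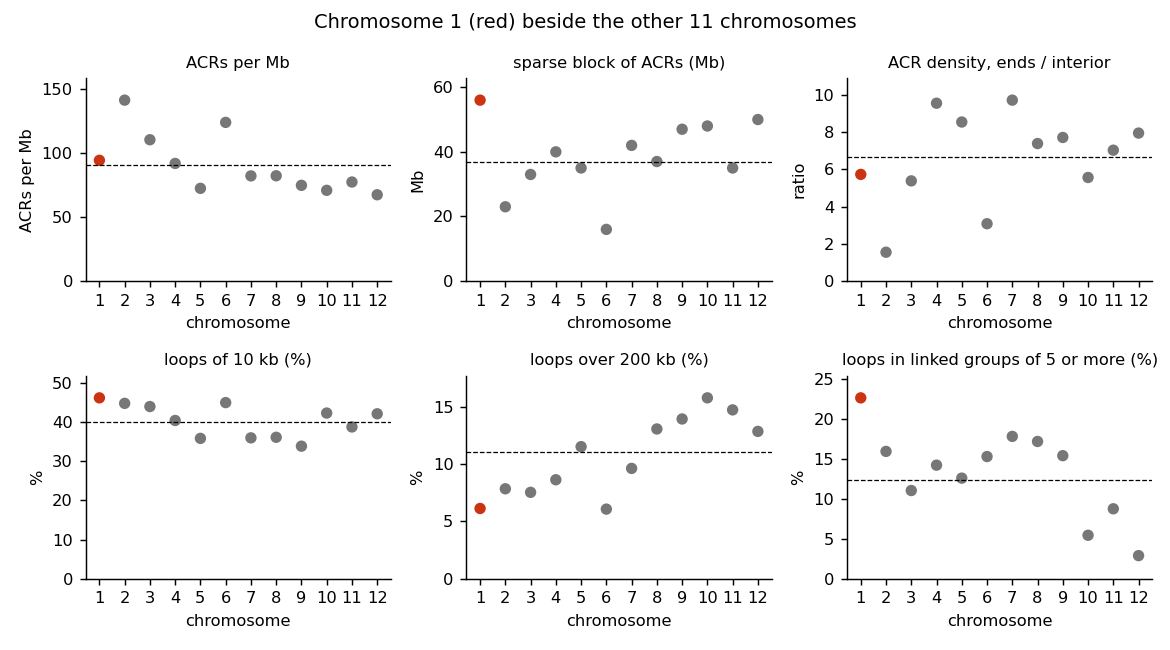
Values of 6 measures (y axes, units in the panel titles) on each of the 12 chromosomes (x axes), with chromosome 1 in red and a dashed line at the mean of the other 11. Chromosome 1 has the longest ACR block, at 56 Mb, the highest share of 10 kb loops, at 46.1%, and, with 10 kb loops included, the highest share of loops in linked groups of 5 or more, at 22.6%; without them 2 chromosomes exceed it.

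Inflorescence loops fell into 3 like parts, in their own coordinates. By the same rule, with a limit of 5.84 loops per window, the sparse block ran from 6 to 59 Mb of 92.7 Mb. The start arm held 145 loops in 6 Mb, or 24.2 per Mb, the block 66 loops in 53 Mb, or 1.25 per Mb, and the end arm 1030 loops in 33.7 Mb, or 30.6 per Mb. The end arm thus held 83.0% of the loops. The edges were uneven here too. The window just outside the start of the block held 4 loops and the first inside held 14, while at the other side the last window inside held 4 and the first outside held 8.

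In the start arm the loops per window numbered 47, 35, 30, 13, 16 and 4, a fall along the arm like that of the ACRs. In the end arm the first 11 windows, from 59 to 70 Mb, held 0 to 14 loops. The counts then rose through 13 and 23 to 37 at 72 to 73 Mb. The fullest window, at 81 to 82 Mb, held 61 loops, followed by 54 at 78 to 79 Mb and 49 each at 76 to 77, 82 to 83 and 85 to 86 Mb. At each of its ends the chromosome stayed dense up to the last window.

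**Figure D3:**
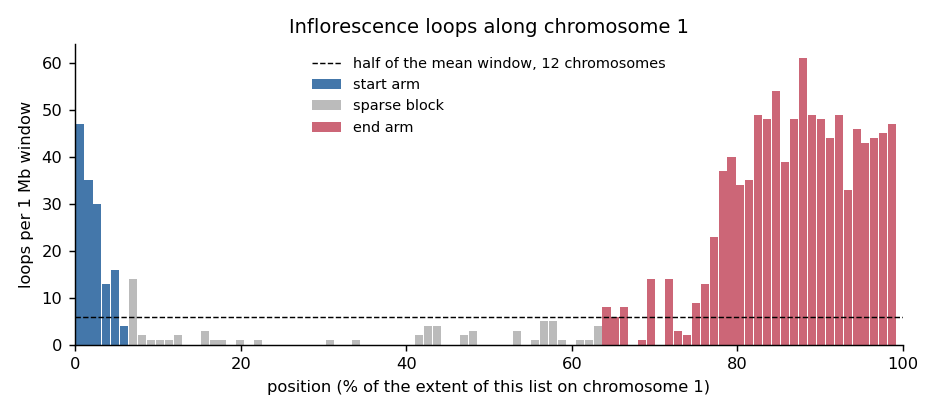
Inflorescence loops per full 1 Mb window of chromosome 1 (bars; y axis, number of loops, each counted at its midpoint) against position as a percent of the extent of the loop list (x axis). Colours mark the start arm, the sparse block and the end arm, and the dashed line is the limit of 5.84 loops; 29 of 92 windows are empty, and the fullest holds 61.

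Several stretches of the block lacked loops for many Mb. The widest span between neighbouring anchor bins ran from 20145001 to 28290000, 8.15 Mb, followed by 7.05 Mb from 31150001 to 38200000 and 4.24 Mb from 44710001 to 48945000. The next were 2.04 Mb from 11940001 to 13980000 and 1.92 Mb from 28935001 to 30850000. Together the first 3 made up 21.0% of the extent, and the 15 stretches longer than 1 Mb made up 40.4%. Of 92 full windows, 29 (31.5%, 95% Wilson interval 22.9 to 41.6%) held no loop, against 25.1% over all 12 chromosomes. The interval treats windows as independent, which they are not, since empty windows lay in runs of up to 7. Of the 29 empty windows, 27 lay in the block. The remaining 2, at 62 to 63 and 65 to 66 Mb, lay in the low stretch at the beginning of the end arm. Neither the share of empty windows (exact permutation p = 0.4167) nor the longest stretch (exact permutation p = 0.3333) was the highest of the 12. Chromosome 12 had the longest stretch, 9.33 Mb. Without contact counts, a stretch with no loop cannot be told apart from one with too few mappable reads to call any.

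The few loops of the block were long. Their median span was 290 kb (95% interval 210 to 355 kb; quartiles 138 and 418 kb), against 20 kb in the start arm (10 to 25 kb) and 15 kb in the end arm (10 to 15 kb). Loops longer than 200 kb numbered 43 of 66 in the block (65.2%, 95% Wilson interval 53.1 to 75.5%). There was 1 of 145 in the start arm (0.690%) and 32 of 1030 in the end arm (3.11%). Conversely, loops of 10 kb, the lowest span in the list, numbered 6 in the block (9.09%, 95% Wilson interval 4.23 to 18.4%), 65 in the start arm (44.8%) and 501 in the end arm (48.6%). Intervals on loops and anchor bins, here and below, cover counting error only. They treat loops as independent, although loops can share a bin. Read as such, the intervals of both arms overlapped in these shares, and those of the block overlapped neither. The block held 13 of the 15 loops longer than 500 kb. The ratio of the median span in the block to that in both arms together was 19.3, and on the other chromosomes it averaged 13.7 ± 4.53 (SD, n = 11 chromosomes; exact permutation p = 0.25).

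**Figure D4:**
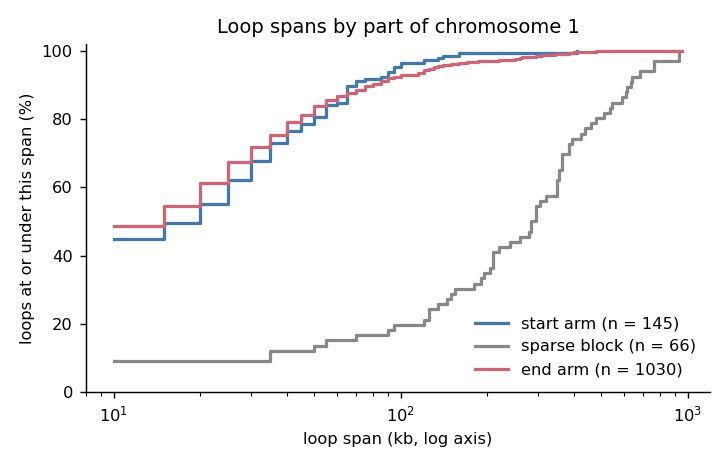
Cumulative share of loops (y axis, percent) at or under a given span (x axis, kb, log axis) in the start arm (145 loops), the sparse block (66 loops) and the end arm (1030 loops) of chromosome 1. The curves of both arms begin at 44.8% and 48.6% at 10 kb, whereas that of the block begins at 9.09%.

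The longest loop of the chromosome was nevertheless in the end arm. It joined the bins at 86120001 to 86125000 and at 87075001 to 87080000, 955 kb apart. Next came a pair of loops of 935 kb in the block, one from 38780001 to 39720000 and the other from 38890001 to 39830000, counted from the outer edges of the bins. They overlapped over most of their length. A loop of 870 kb joined 63385001 to 63390000 with 64255001 to 64260000, and one of 765 kb joined 9540001 to 9545000 with 10305001 to 10310000. At the start of the block, 4 loops joined it to the start arm. None crossed its other edge.

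Over the chromosome, 572 of 1241 loops spanned 10 kb (46.1%, 95% Wilson interval 43.3 to 48.9%), the highest share of the 12 chromosomes. The pooled share elsewhere was 40.1%, and the mean over chromosomes 39.8 ± 4.00% (SD, n = 11; exact permutation p = 0.1667). The next highest was chromosome 6, at 44.9%. Loops of 15, 20 and 25 kb numbered 69, 77 and 71. Loops longer than 200 kb were few, at 6.12% (95% Wilson interval 4.92 to 7.60%) against 11.04 ± 3.27% (SD, n = 11 chromosomes; exact permutation p = 0.25), and only chromosome 6, at 6.07%, had a lower share. The median span, 15 kb, equalled that of chromosome 2 and lay below the 20 to 35 kb of the other 10 chromosomes. Without the 10 kb loops the median span was 40 kb against a mean of 52.7 kb elsewhere, and it ranked 9 of 12 from the highest. The loop density was then 7.22 per Mb against a mean of 7.14 elsewhere. No pair of loops of chromosome 1 had both anchors in the same or adjoining bins. Whether neighbouring calls were merged or filtered before the list was made was not tested. Counts of loops per bin and per group below cover only the loops left in the list.

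The loops of chromosome 1 used 1972 anchor bins. Of these, 1570 anchored 1 loop, 316 anchored 2, 69 anchored 3, 13 anchored 4, 3 anchored 5 and 1 anchored 6. Bins with at least 2 loops made up 20.4% (402 bins, 95% Wilson interval 18.7 to 22.2%), against 19.2% over all 12 chromosomes. Bins with at least 3 made up 4.36% (86 bins, 95% Wilson interval 3.54 to 5.35%), against 3.2% over all 12. The first share was near the background. The second was exceeded only on chromosome 7, at 4.86%, and its mean elsewhere was 2.95 ± 0.98% (SD, n = 11 chromosomes; exact permutation p = 0.25). Chromosome 1 held 12.7% of all anchor bins, 13.5% of those with at least 2 loops, 17.2% of those with at least 3 and 21.8% of those with at least 4. The last share rests on 17 of 78 bins, and 4 of these 17 lay close together, as described below. Bins with at least 2 loops made up 20.9% of anchor bins in the start arm, 21.3% in the end arm and 7.5% in the block (95% Wilson interval 4.00 to 13.6%), where loops were also fewest.

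Of the 17 bins with at least 4 loops, 15 lay in the end arm. That arm also held 1622 of the 1972 anchor bins and 83.0% of the loops, so most busy bins would lie there by its size alone. In 13 of the 17, partners lay on both sides. No such count is given for the other chromosomes, so it was not shown to be particular to chromosome 1. The busiest bin, at 76375001 to 76380000, anchored 6 loops, all of them to partners further along the chromosome, at distances of 60, 85, 105, 115, 185 and 390 kb. Only 2 of these partners anchored a further loop. Bins with 5 loops stood close by, at 76420001 to 76425000, with its 5 partners all further along, and at 76455001 to 76460000, with 3 partners before it and 2 after. The bin at 76510001 to 76515000 anchored 4 loops, all to partners before it. These 4 bins lay within 140 kb, and along that stretch the direction of the loops turned from forward to backward.

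Other busy bins were spread over the end arm. The bin at 78715001 to 78720000 anchored 5 loops, 4 of them to partners before it, at 10 to 150 kb. Bins with 4 loops lay at 66315001, 77850001, 79100001, 81125001, 82495001, 85340001, 87075001, 87100001, 90700001 and 92060001, given by their first base. At 79100001, 82495001 and 90700001 no partner was further than 35 kb. The bin at 87075001 differed, since one of its loops was the longest of the chromosome, at 955 kb. In the start arm the bin at 1105001 anchored 4 loops of 10 to 100 kb. Just inside the sparse block the bin at 6860001 anchored 4 loops of 180 to 365 kb, all to partners toward the chromosome start.

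Loops that share a bin were taken as linked, and chains of linked loops as 1 group. The 1241 loops formed 755 groups, of which 550 were single loops. There were 38 groups of 5 or more loops, and they held 281 loops, or 22.6%. On the other chromosomes the share ranged from 2.90% on chromosome 12 to 17.8% on chromosome 7. Without the 10 kb loops the share on chromosome 1 was 14.35%, and 2 other chromosomes exceeded it. The largest group of chromosome 1 held 25 loops on 24 bins, from 76365001 to 76770000, and contained the 4 busy bins described above. It was also the largest of the list, ahead of 21 loops on chromosome 8. These group sizes were looked at after the busy bins were known, so they carry no test. Groups grow with the local density of loops, which in the arms of chromosome 1 was 29.6 loops per Mb against 25.9 ± 2.95 (SD, n = 11 chromosomes); the part of density in the result was not tested.

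Within the largest group the loops spanned 10 to 390 kb, with a median of 75 kb, and 4 of the 25 spanned 10 kb. Its median span lay above the 15 kb of the end arm around it. The group was picked as the largest chain of linked loops, a choice that leaves out single loops. The difference in span is therefore a description with no test. Of its bins, 14 anchored at least 2 loops of the list and 10 anchored 1. All bins but the farthest lay between 10 kb before and 185 kb after the busiest bin. The bin at 76455001 to 76460000 lay under 18 loops, counting those it anchors, more than any other bin of the chromosome. Without this group, 19.9% of the remaining anchor bins carried at least 2 loops and 4.21% at least 3, so the shares of the chromosome changed little.

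**Figure D5:**
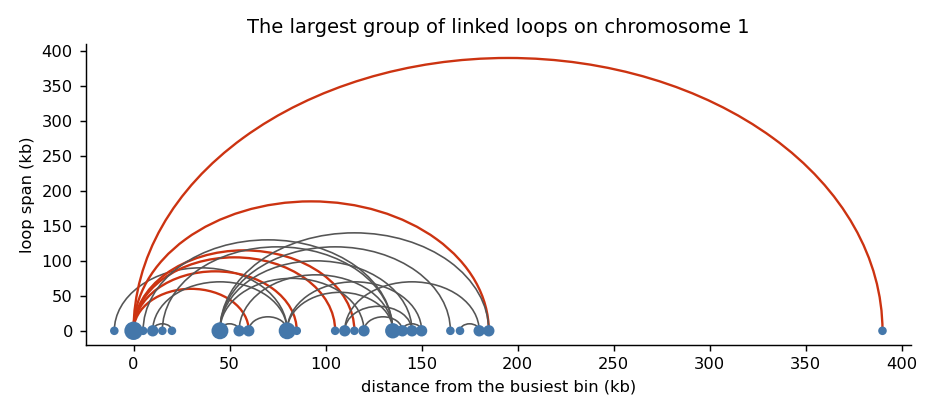
The 25 loops of the largest linked group of chromosome 1, drawn as arcs between their anchor bins; the x axis is the distance from the busiest bin in kb, and the height of an arc is the span of the loop in kb. Red arcs are the 6 loops of the busiest bin, and the area of a dot grows with the number of loops its bin anchors; the longest arc spans 390 kb.

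The second largest group held 16 loops on 16 bins between 86120001 and 87145000, and it owed its length of 1020 kb to the loop of 955 kb. It was followed by groups of 12 loops at 77505001 to 77650000 and at 78565001 to 78730000. In the start arm the largest group held 11 loops on 12 bins within 75 kb, at 905001 to 985000. In the sparse block the 66 loops formed 54 groups, 48 of them single loops, and the largest held 5. As a whole, 40.5% of the extent of chromosome 1 lay at or between the anchors of at least 1 loop, against 47.3 ± 7.47% (SD, n = 11 chromosomes; exact permutation p = 0.3333).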

How the data were processed

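The authors deposited 1 leaf ATAC-seq peak list, for 6 replicates, and 1 Hi-C loop list, for 2. The deposited score is a whole number per peak with a ceiling of 1000, and the −log10 q stands in the peak name, per the file itself. Genrich 0.6 and HiC-Pro 3.1.0 are named in the submitters' processing notes, beside Trimmomatic, BWA, bedtools, SAMtools and Picard; neither settings nor the loop assembly is given in the sources used here. FitHiC is named by the deposited loop list. BED starts were printed 1-based; a loop anchor is its midpoint and the surrounding 5 kb. Members were assigned to windows by midpoint with Python 3.11.15, pandas 2.3.3 and numpy 2.4.6; intervals of shares are Wilson intervals (SciPy 1.17.1), and those of medians come from order statistics. The calculations were tested on simulated data. Alternatives were a q limit of 0.05, the median score, merging within 150 bp, other end widths, other window rules and leaving out 10 kb loops. Positions were named by rank: the first 10 ACRs by score and q, the 5 widest ACRs, the 5 longest empty stretches and loops, the 5 fullest and emptiest windows, and each bin with at least 4 loops; loop windows tied at 0 are given as counts. Other positions, such as those inside the block, long chains and linked groups, were chosen after their values were seen. The members, lists and rules were chosen with earlier results of these data known.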

Additional observations from a re-analysis of the deposited data

How the results depend on the processing

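Of 39 alternatives over 16 results, 14 stayed within the counting interval of the reported value or, for counts, densities and lengths, within 1.5 times of it. At or above the median score the ACR density was 47.11 per Mb by construction, the median width 730 bp and the median −log10 q 4.316, which then lay above the mean of the other 11 chromosomes and not below it. With q at or under 0.05 the median −log10 q was 2.626, and with ACRs within 150 bp merged the median width was 761 bp. The ratio of ACR density, ends over interior, was 3.71 with ends of 10%, 7.825 with ends of 30%, 6.11 at or above the median score and 5.185 with ACRs merged; with ends of 30% it lay above the mean of the other chromosomes, and the cause was not tested. The share of close neighbours was 38.67% within 500 bp, 66.22% within 2 kb, 33.79% at or above the median score and 37.82% with ACRs merged. The ACR block measured 42 to 63 Mb and was the longest of the 12 under each of the 4 window rules tried. Without 10 kb loops the loop density was 7.218 per Mb, the ratio of ends over interior 4.301, the median span 40 kb, the share over 200 kb 11.36%, and the shares of shared bins 14.55% and 3.194%. The loop ratio was 3.476 with ends of 10% and 10.36 with ends of 30%. With adjoining bins joined the shares of shared bins were 36.01% and 14.35%. The share of loops in groups of 5 or more was 14.35% without 10 kb loops, where 2 chromosomes exceeded it, and 50.68% with adjoining bins joined; these were added after seeing the data. The largest group held 21 and 29 loops in these settings and stayed the largest of the 12 chromosomes. No paired analysis was possible because both lists combine their replicates; for this reason none could be left out either. With depth unknown, an absent ACR or loop sets no limit.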
